A study of Homo sapiens with 23 samples.

Results

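Peaks of LSD1, its neuronal splice isoform LSD1+8a and supervillin (SVIL) were examined around 7 genes of catecholamine synthesis, storage and reuptake: TH, DDC, DBH, GCH1, SLC18A1, SLC18A2 and SLC6A2. Members are the peaks of 5 deposited lists that overlap a fixed window of the hg19 build around each gene. The windows are 120 to 220 kb long and cover 1.08 Mb in all. They held 66 of the 52708 peaks in the 5 lists. The windows are chr11:2130000-2250000 for TH, chr7:50470000-50690000 for DDC, chr9:136450000-136580000 for DBH, chr14:55250000-55420000 for GCH1, chr8:19950000-20100000 for SLC18A1, chr10:118950000-119090000 for SLC18A2 and chr16:55640000-55790000 for SLC6A2. No annotation of hg19 was used here, so a peak is placed in a window and not at a promoter, exon or intron, and a window also holds sequence outside the gene it is named for. From first to last, peaks spread over 143 kb in the DDC window, 125 kb at GCH1, 99.3 kb at DBH and 71.6 kb at SLC18A1. RefSeq gives these genes lengths of 107, 60.8, 23 and 38.3 kb in GRCh38, so their peaks cannot all lie within the gene. At TH, SLC18A2 and SLC6A2 the spread was shorter than the gene.

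The 5 libraries used here came from SH-SY5Y, a human neuroblastoma line of the sympathetic lineage, infected with a control shRNA or with an shRNA against LSD1+8a. Per the protocol, 4 days of retinoic acid (10 µM) were followed by 3 days of brain-derived neurotrophic factor (BDNF, 50 ng/mL) in medium without serum, and day 0 and day 3 are days of BDNF. Of the 5 lists, 3 are for LSD1, with 16882 peaks at day 0 and 20748 at day 3 for cells with the control shRNA and 10248 at day 0 for those with the LSD1+8a shRNA. The 2 remaining lists are from day 3 and the control shRNA, 1 for LSD1+8a (3378 peaks) and 1 for SVIL (1452). There is 1 library per group. Differences therefore lack a check against replicates and conditions could not be tested, and the remaining 18 samples of the series, inputs included, were not analysed here. The day 0 titles end in a letter and number whose meaning was not established, and the day 3 titles of these lists do not. Each group is 1 library and the input of each list is unknown. For control cells at day 3, the only input in the series is titled as that of the histone mark H3K9me2. Day therefore cannot be told apart from a difference of library or input. Read depth is unknown too, and a gene with no peak is one with no signal above the caller's threshold at an unknown depth. These files measure neither the extent of the knockdown nor the specificity of the antibodies. Peaks do not measure transcription, so the cell type was not checked from expression.

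Catecholamines are made from tyrosine. Tyrosine hydroxylase (TH) makes L-DOPA, with a pterin cofactor whose synthesis starts with GTP cyclohydrolase (GCH1), and DOPA decarboxylase (DDC) turns L-DOPA into dopamine. The vesicular monoamine transporters SLC18A1 and SLC18A2 load dopamine into vesicles, where dopamine beta-hydroxylase (DBH) makes noradrenaline, and SLC6A2, the noradrenaline transporter, takes released noradrenaline back into the cell. Sympathetic neurons and chromaffin cells use this set of genes, though not every member is particular to them. SLC6A2 also takes up the tracer MIBG used to image neuroblastoma. LSD1 (KDM1A) removes methyl groups from lysines of histone H3, often as part of corepressor complexes with CoREST and histone deacetylases. LSD1+8a is a form found in neurons that carries a short extra exon, and SVIL, which binds actin, is called its cofactor in the series design.

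RefSeq's table of GRCh38.p14 promoters matched 3 of the 7 genes, DDC (with 2 starts), DBH and SLC18A2, and their upstream sequences are shown for that reason. They serve to compare the letters upstream of genes whose windows held many peaks, DDC and DBH, with those of SLC18A2, whose window held 1. Each run is the 250 bases before a start, read 5′ to 3′ on the gene's strand. Capitals mark matches to the cAMP response element (CRE, TGACGTCA) or its shorter core TGACG, on either strand. Positions in GRCh38.p14 cannot be set against the hg19 peaks, so whether a peak covers one of these sequences was not established.
DDC, first start, chr7:50565406-50565655, minus strand: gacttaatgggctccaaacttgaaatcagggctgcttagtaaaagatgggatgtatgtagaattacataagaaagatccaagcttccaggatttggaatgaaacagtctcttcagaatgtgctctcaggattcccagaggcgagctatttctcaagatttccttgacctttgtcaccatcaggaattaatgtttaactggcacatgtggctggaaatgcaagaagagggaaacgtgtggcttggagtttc
DDC, second start, chr7:50561072-50561321, minus strand: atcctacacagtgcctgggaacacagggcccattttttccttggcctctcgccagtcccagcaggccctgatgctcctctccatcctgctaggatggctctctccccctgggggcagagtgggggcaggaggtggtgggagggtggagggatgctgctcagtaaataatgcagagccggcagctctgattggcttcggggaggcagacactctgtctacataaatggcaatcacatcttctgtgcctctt
DBH, chr9:133636113-133636362, plus strand: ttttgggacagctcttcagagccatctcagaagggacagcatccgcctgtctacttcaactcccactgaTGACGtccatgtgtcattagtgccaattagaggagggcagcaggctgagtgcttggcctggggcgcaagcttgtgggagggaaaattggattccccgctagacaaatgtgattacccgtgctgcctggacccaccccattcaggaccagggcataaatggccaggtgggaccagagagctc
SLC18A2, chr10:117240864-117241113, plus strand: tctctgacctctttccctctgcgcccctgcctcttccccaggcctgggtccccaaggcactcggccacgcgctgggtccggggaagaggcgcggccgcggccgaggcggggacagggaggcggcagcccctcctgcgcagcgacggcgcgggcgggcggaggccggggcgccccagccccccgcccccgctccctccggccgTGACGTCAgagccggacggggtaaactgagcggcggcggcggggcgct

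The SLC18A2 run stood apart in base composition, with 78.8% G and C and 33 CpG, against 55.6% and 5 for DBH 42.4% and 2 for the first start of DDC and 58% and 3 for the second. The medians over the same stretch of all 35116 promoters in the table were 58% and 11. SLC18A2 held the full CRE, found in 1.65% of all these stretches, starting 48 bases before the gene start. DBH held the core TGACG alone, starting 181 bases before the start, and 21.2% of all stretches hold that core, counting those within a full CRE. The first DDC start had the letters AAAGGTCA, the element bound by NR4A nuclear receptors, 87 bases before the start, as had 1.04% of all stretches. GGGCGG, the Sp1 box, occurred 3 times upstream of SLC18A2 and in none of the other runs, against 42.6% of all stretches with at least 1. AP-1 (TGANTCA), the TATA box TATAAA and the left RE1 part TTCAGCACC, which belongs to the element bound by REST, had no match in the 4 runs. The right RE1 part GGACAG occurred 2 times upstream of DBH and 1 time upstream of SLC18A2, and in 17.2% of all stretches. The homeodomain core ATTA occurred upstream of both DDC starts and of DBH, and in 47.4% of all stretches. The E-box CANNTG occurred upstream of DBH and the first DDC start, and in 61.8%, and the receptor core AGGTCA, which also lies in AAAGGTCA, upstream of SLC18A2 and the first DDC start, and in 12.1%. These matches describe letters only.

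LSD1 peaks were present around most of the 7 genes. The LSD1 lists had 19 peaks in 6 of 7 windows in control cells at day 0, 26 peaks in 7 of 7 windows at day 3, and 12 peaks in 6 of 7 windows in knockdown cells at day 0. LSD1+8a had 6 peaks in 4 of 7 windows (DDC, DBH, SLC18A1 and SLC6A2), and SVIL had 3 peaks in 2 of 7 (DBH and SLC6A2). When the genome was laid out in tiles of 150 kb, about the mean window length, 43.7% of tiles held a day 0 control LSD1 peak, 49.1% a day 3 LSD1 peak, 31.7% a knockdown LSD1 peak, 13.9% an LSD1+8a peak and 6.11% a SVIL peak. Tiles include stretches without genes, and gene content was not matched.

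**Figure D1:**
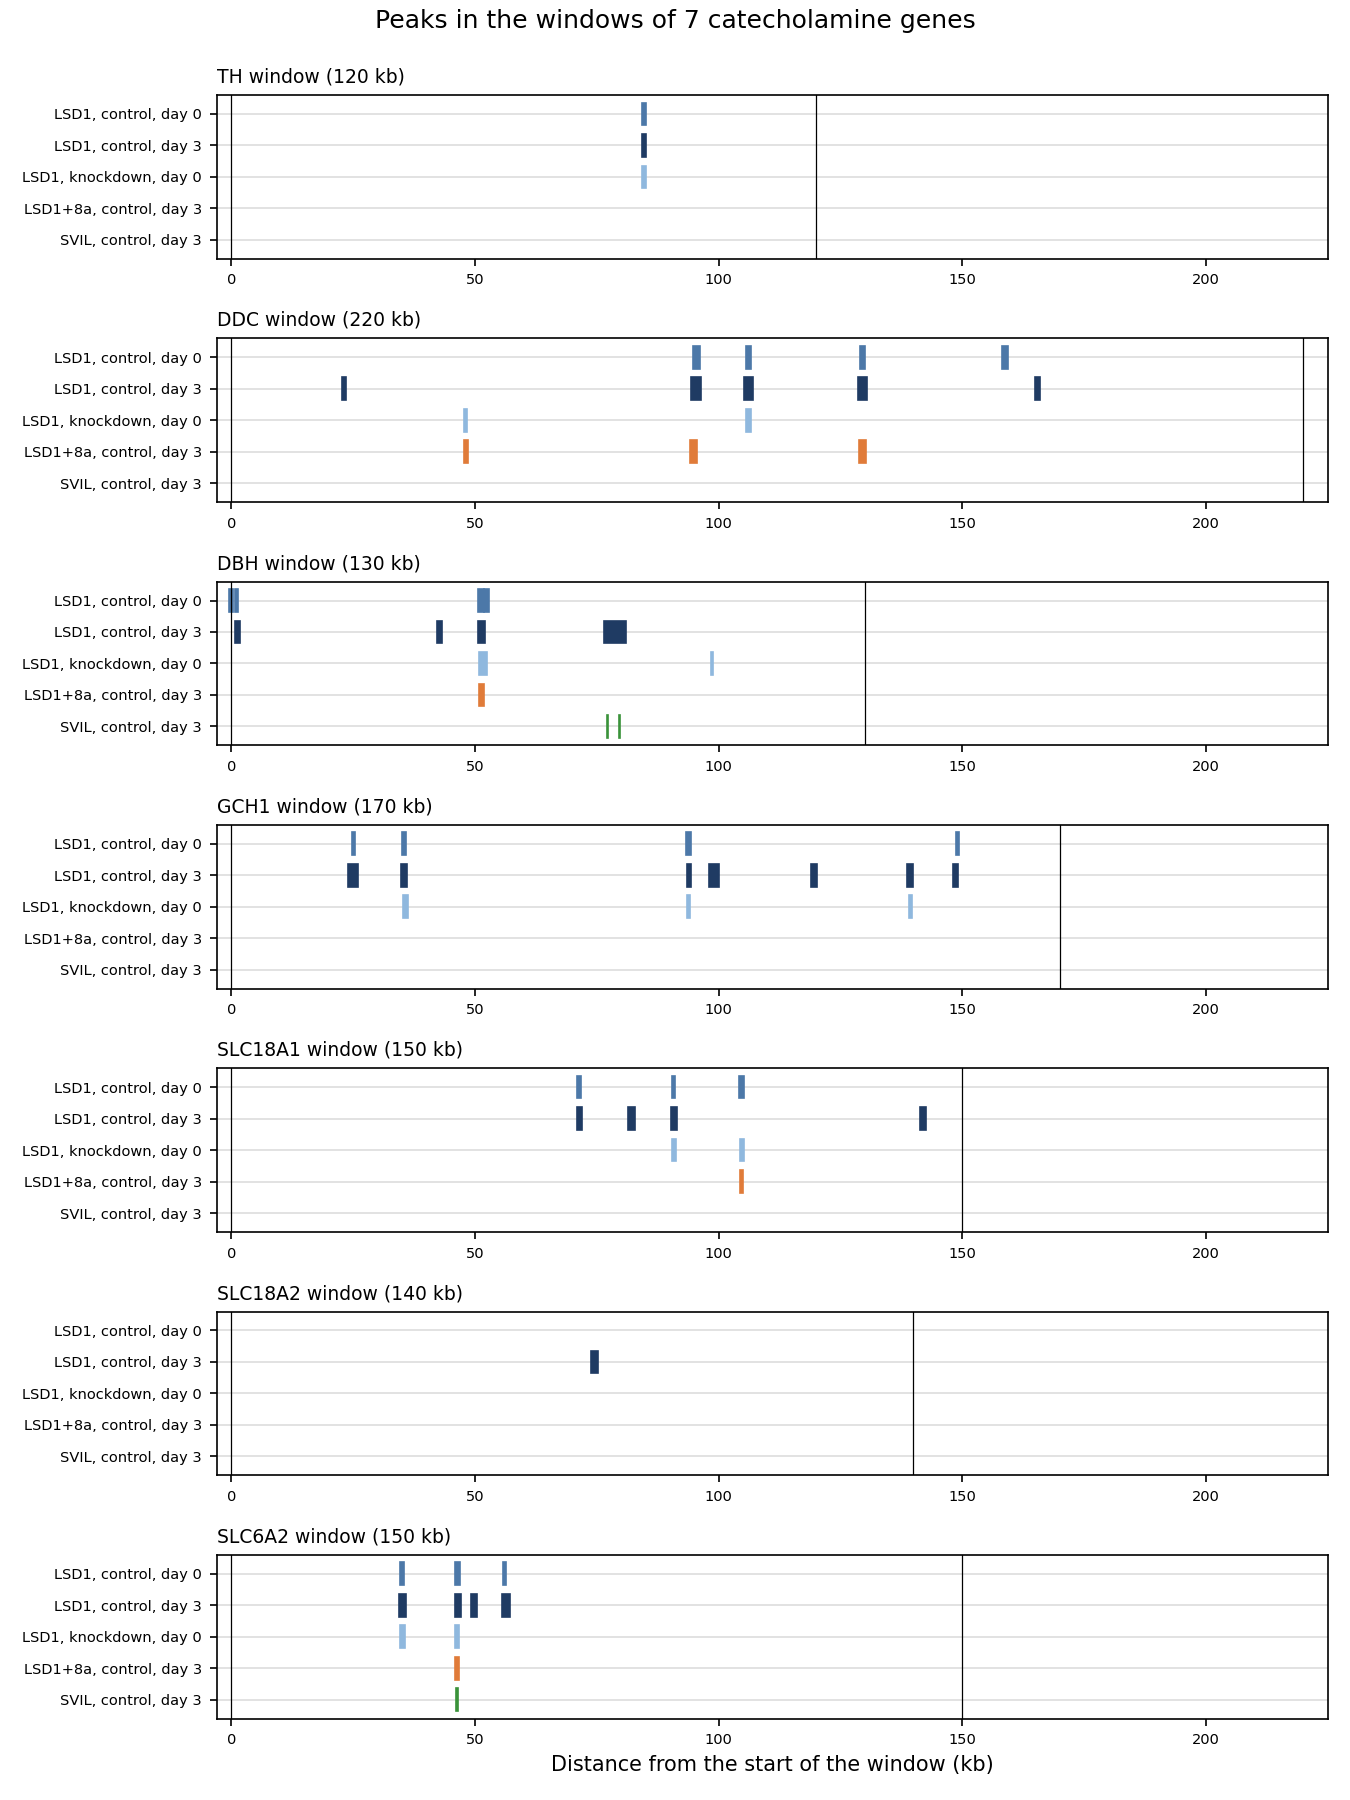
Peaks of the 5 lists (rows, 1 colour per list) in the window of each gene (panels); the x axis is the distance from the start of the window in kb, boxes are peaks drawn to scale and vertical lines are the window's edges. The SLC6A2 window has 1 position with a box in all 5 rows, GCH1 has boxes in the 3 LSD1 rows only, and SLC18A2 has 1 box; 2 adjacent day 0 peaks of DBH, near 51 kb, look like 1 at this scale.

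Peak density in the windows was above that of the whole list in each library. LSD1 had 17.6 peaks per Mb of window (exact 95% Poisson interval 10.6 to 27.5) at day 0 and 24.1 (15.7 to 35.3) at day 3 in control cells, against 5.55 and 6.82 per Mb over the whole lists. Knockdown cells had 11.1 (5.74 to 19.4) against 3.37. LSD1+8a had 5.56 (2.04 to 12.1) against 1.11, and SVIL 2.78 (0.573 to 8.12) against 0.477. The 500 kb on each side of the windows held 6.43 (4.69 to 8.60), 9.29 (7.17 to 11.8) and 4.86 (3.36 to 6.79) LSD1 peaks per Mb in the same order, 1.86 (0.989 to 3.18) for LSD1+8a and 0.286 (0.0346 to 1.03) for SVIL. For both control LSD1 lists the intervals of window and flank did not overlap, whereas for the knockdown, LSD1+8a and SVIL lists they did. The lower bound in the windows lay above the whole-list density in all 5 lists. For SVIL it did so narrowly, 0.573 against 0.477, with 3 peaks. Of these, 2 lay in the same DBH region and were counted separately, so the SVIL bound settles no direction. Intervals cover counting error only and treat peaks as independent.

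**Figure D2:**
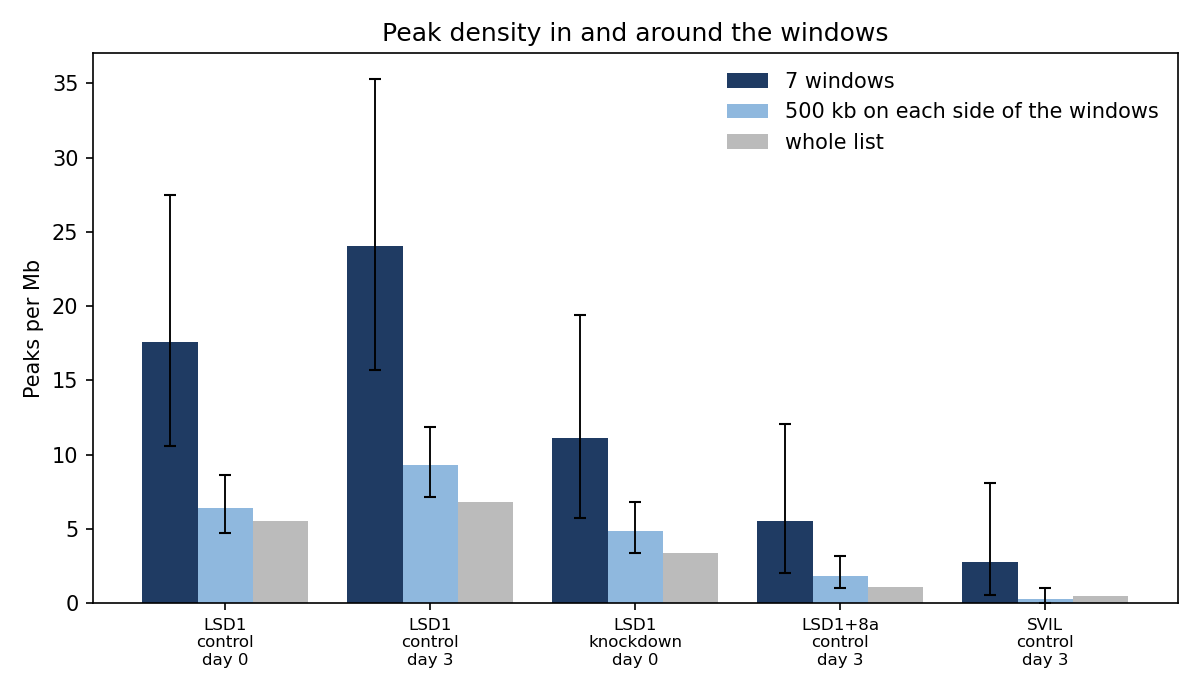
Peaks per Mb (y axis) in the 7 windows, in the 500 kb on each side of them and over the whole list, for each of the 5 lists (x axis); error bars are exact 95% Poisson intervals on the count, and the whole list has none drawn. The window bar is the tallest of the 3 in every list, from 2.78 per Mb for SVIL to 24.1 for LSD1 at day 3.

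Counts set against the flanks varied among the genes, and no interval was made for single windows. In the DDC window, 5 LSD1 peaks at day 3 compare with 1.10 for the same length of its flanks, and 3 LSD1+8a peaks with none in its flanks. In the GCH1 window 7 day 3 LSD1 peaks compare with 1.70. At TH, 1 LSD1 peak compares with 1.32 at day 0 and 1.20 at day 3 in control cells for the same length of its flanks. In knockdown cells 1 compares with 0.48. SLC18A2 had 0 LSD1 peaks at day 0, against 0.28 in control and 0.56 in knockdown cells, and 1 at day 3, against 0.98. At TH and SLC18A2 these counts are too small to give a direction. Both genes had no LSD1+8a or SVIL peak. Among genome tiles of 170 kb, 1.13% held 7 or more day 3 LSD1 peaks, and 0.976% of tiles of 220 kb held 3 or more LSD1+8a peaks. These shares were picked as among the lowest. In the other windows, 5.22% (DBH) to 47.6% (SLC18A2) of tiles of the window's length held as many day 3 LSD1 peaks. For LSD1+8a, the other windows with a peak had 12.3% (DBH) to 13.9% (SLC18A1 and SLC6A2). The lowest share was that of SVIL at DBH, where 0.564% of tiles of 130 kb held 2 or more peaks. At SLC6A2, 6.11% of tiles held as many SVIL peaks.

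Overlapping peaks were joined, which gave 31 regions from the 66 peaks. A single list accounted for 12 regions, and 19 of 31 were in 2 or more lists, against 42.4% of all 32188 merged regions of the series. In 3 or more lists were 11 of the 31, against 15.7% of all, in 4 or more 2, against 3.95%, and in all 5 lists 1, against 0.432%. The most frequent kind was LSD1 at day 3 alone, with 9 regions (29%, against 33.5% of all), followed by the 3 LSD1 lists together without LSD1+8a or SVIL, with 6 (19.4%, against 7.76%).

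Tyrosine hydroxylase, the rate-limiting enzyme of the pathway, had 1 region and 3 peaks in its window. Its 1 region, chr11:2214195-2215203, was listed in all 3 LSD1 libraries and in neither the LSD1+8a nor the SVIL list. It had 39 tags at a fold enrichment of 9.49 in control cells at day 0, 65 tags at 25.25 at day 3 and 27 tags at 11.2 in knockdown cells. Tags are the sequenced reads the caller counted in a peak, and fold enrichment and score are the authors' values for a peak against a background that the headers do not define. They were used to place a peak within its own list and, in alternative settings alone, as a limit, including 1 score limit common to all lists. The region ranked 6538 of 16882 by score at day 0, 3360 of 20748 at day 3 and 3233 of 10248 in knockdown cells, so it stood in the upper 50% of each list. The 3 summits lay within 31 bp of each other. In RefSeq, TH lies between INS and ASCL2.

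GCH1, the entry enzyme of cofactor synthesis, had 7 regions and 14 peaks in its window, all of LSD1. Control cells had 4 peaks at day 0 and 7 at day 3, and knockdown cells had 3. The day 0 peaks were weak in their list by score: all 4 ranked below the upper 50%, with 14 to 39 tags and folds of 5.17 to 10.3. Only the highest of these folds lay above the list median of 9.30. At day 3, 6 of the 7 were in the upper 50%. The strongest of them, chr14:55347961-55350029, had 126 tags at a fold of 34.6, ranked 1972 of 20748 and was listed in that library alone. A short distance before it, chr14:55343282-55344382 was in all 3 LSD1 lists, with 39 tags at day 0, 76 at day 3 and 23 in knockdown cells, where it reached a fold of 19.9 and rank 1805 of 10248. The region chr14:55388595-55389977 was listed at day 3 (69 tags) and in knockdown cells at day 0 (15 tags) but not in control cells at day 0. Regions in these lists alone numbered 781 (2.43%) in the series. Every GCH1 peak of day 0 control cells overlapped a day 3 peak.

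DDC, which makes dopamine, had 7 regions and 14 peaks in its window, and all 5 LSD1 peaks of day 3 were in the upper 50% of their list. The strongest was chr7:50575261-50577089, with 278 tags at a fold of 22.2 and rank 258 of 20748. The same region had 55 tags in control cells and 55 in knockdown cells at day 0, ranked 2590 of 16882 and 3402 of 10248 by score. Its folds of 7.15 and 6.66 lay below the list medians of 9.30 and 9.13, and the region was not listed for LSD1+8a. On either side of it, chr7:50564093-50566352 and chr7:50598666-50600415 were shared by LSD1 at both control stages and LSD1+8a at day 3, and neither was in the knockdown list. The first had 45, 135 and 57 tags for LSD1 at day 0, LSD1 at day 3 and LSD1+8a, and the second had 42, 102 and 62. This combination of lists was found in 337 (1.05%) of all merged regions of the series and in 2 of the 31 here. Summits in these regions spread over 406 and 438 bp.

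The strongest LSD1+8a peak of the set lay in the DDC window at chr7:50517729-50518616. It had 229 tags at a fold of 66.3 and ranked 5 of 3378. Its only overlap was a peak of ordinary strength in the LSD1 list of knockdown cells, with 33 tags at a fold of 8.02 and rank 4574 of 10248. Neither control LSD1 list had a peak there. Regions with this combination numbered 132 (0.410%) in the series. RefSeq places FIGNL1, a gene of DNA repair, and GRB10, an adaptor of insulin receptor signalling, next to DDC, and which of these genes the peak belongs to was not established. The remaining DDC regions were single-list LSD1 peaks, chr7:50492653-50493579 (51 tags) and chr7:50634937-50636071 (60 tags) at day 3 and chr7:50628200-50629367 (50 tags) at day 0.

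DBH, which makes noradrenaline and so sets noradrenergic cells apart from dopaminergic ones, had 6 regions and 13 peaks in its window. Its main region, chr9:136500658-136502807, was in 4 lists. In control cells at day 0 it held 2 adjacent peaks, the first with 73 tags at a fold of 13.0, which at rank 632 of 16882 was the best ranked day 0 peak of the 7 windows, and the second with 18 tags at rank 16349. At day 3 it had 114 tags at a fold of 25.6 and rank 1820 of 20748. In knockdown cells it was long, 1704 bp, with 63 tags, but stood low in its list, at a fold of 4.47 and rank 8872 of 10248. LSD1+8a had 46 tags there at a fold of 9.86 and rank 2723 of 3378. The peak was thus among the strongest in the control LSD1 lists and among the weaker in the knockdown and LSD1+8a lists, and ranks from lists of different lengths do not measure a change of binding.

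A second DBH region was broad. At chr9:136526551-136530921 a day 3 LSD1 peak of 4371 bp was the 14th longest of 20748, with 176 tags, a fold of 11.4 and rank 1598. It held 2 SVIL peaks, chr9:136527078-136527313 with 18 tags at a fold of 22.35 and chr9:136529571-136529867 with 16 tags at 18.7, ranked 457 and 1376 of 1452. LSD1+8a, LSD1 of day 0 and LSD1 of knockdown cells had no peak there. Regions with LSD1 at day 3 and SVIL alone numbered 168 (0.522%) in the series. The other 4 DBH regions had at most 69 tags, and 1 of them, chr9:136449620-136450299, crossed the edge of the window. RefSeq lists FAM163B and SARDH as the neighbours of DBH.

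The vesicular transporters differed in how many peaks their windows held. SLC18A1, the transporter typical of chromaffin cells, had 5 regions and 10 peaks, and SLC18A2, that of neurons, had 1 peak. The single SLC18A2 peak, chr10:119023769-119025287, was listed for LSD1 at day 3 with 57 tags at a fold of 9.23 and rank 13081 of 20748, in the lower part of its list. At SLC18A1, chr8:20040253-20041393 was in all 3 LSD1 lists, with 18 tags at day 0, 53 at day 3 and 34 in knockdown cells, and chr8:20020962-20022012 was in both control lists, with 30 and 76 tags. The region chr8:20054300-20055277 had an LSD1 peak at day 0 in control (35 tags) and knockdown cells (33 tags) and an LSD1+8a peak at day 3 (25 tags, rank 2654 of 3378), but no LSD1 peak at day 3. Regions with this combination numbered 517 (1.61%) in the series. With windows widened by 50 kb on each side, SLC18A2 had 5 peaks and SLC18A1 had 11, so the contrast between them depends in part on the window. The 4 added SLC18A2 peaks began 44.7 to 45.8 kb outside the window. They were an LSD1+8a peak of 47 tags at rank 352 of 3378 and LSD1 peaks of 31 tags at day 3, 35 tags in knockdown cells and 12 tags in control cells at day 0. With them, the day 0 LSD1 lists of control and knockdown cells had a peak in 7 of 7 windows.

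SLC6A2, the noradrenaline transporter, held the only region in all 5 lists, chr16:55685820-55687155. LSD1 had 51 tags there in control cells at day 0, 98 at day 3 and 42 in knockdown cells, LSD1+8a had 45 and SVIL 29. The folds were 7.52, 32.0, 10.9, 17.6 and 15.3 in the same order. It stood in the upper 25% of every list by score, at ranks 3530 of 16882, 1041 of 20748, 2053 of 10248, 774 of 3378 and 353 of 1452. By fold it lay below the list median for LSD1 in control cells at day 0 (7.52 against 9.30) and for SVIL (15.3 against 18.2). In the other lists its fold lay above the median. The 5 summits lay within 65 bp. The inputs were not examined at this region. All 4 SLC6A2 regions lay within 22.8 kb of the 150 kb window. The others were chr16:55674426-55675817, in the 3 LSD1 lists with 30, 65 and 32 tags, chr16:55695519-55697255, in both control LSD1 lists with 14 and 98 tags, and chr16:55689097-55690469, at day 3 alone with 46 tags.

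**Figure D3:**
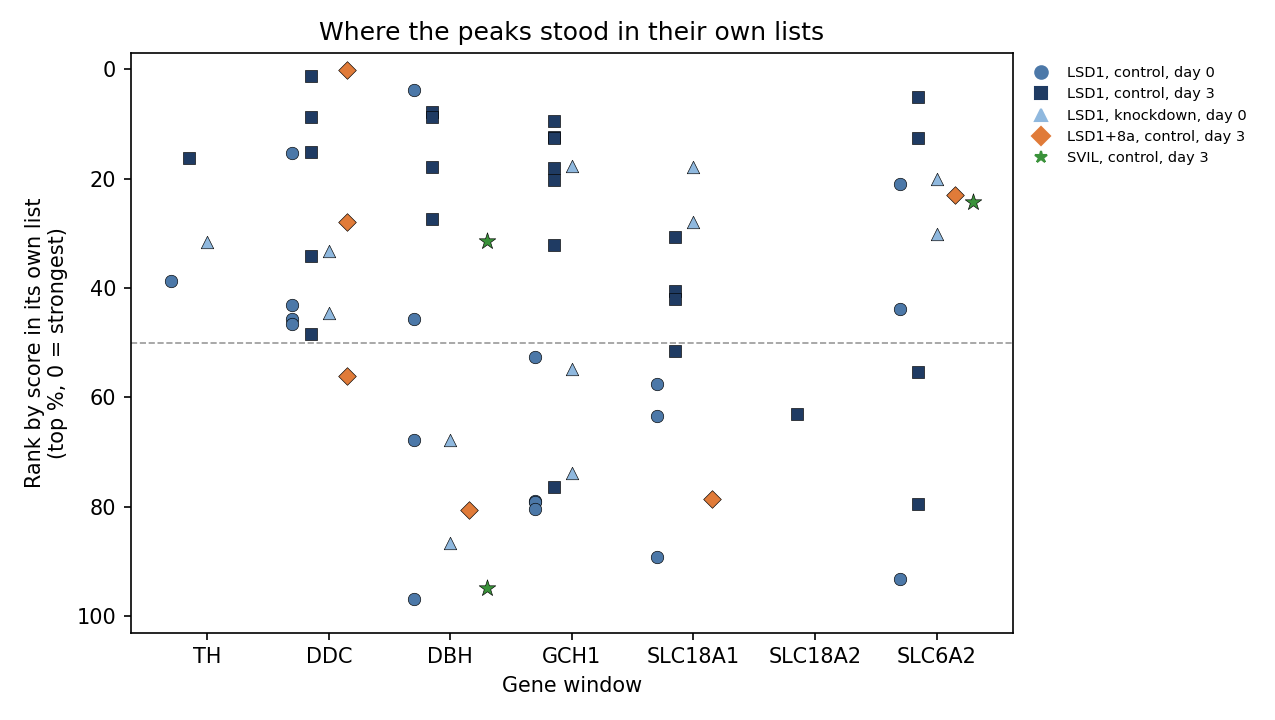
Rank by score of each of the 66 peaks within its own list, as a percentage from the top (y axis, 0 is the strongest), for each gene window (x axis) and list (colour and symbol); the dashed line marks the upper 50%. At day 3, 21 of 26 LSD1 peaks lie above the line, 1 of the 3 LSD1+8a peaks of DDC lies at the very top and another below the line, and all 4 GCH1 peaks and all 3 SLC18A1 peaks of day 0 control cells lie below it.

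Most day 0 LSD1 peaks of control cells had an overlapping peak at day 3. The share from day 3 back to day 0 was lower, as it was over the whole lists, of which the day 3 list is the longer. Of the 19 day 0 peaks of control cells, 16 (84.2%, exact 95% binomial interval 60.4 to 96.6) overlapped a day 3 peak, against 50.1% of the whole day 0 list and 48.6% of the other day 0 peaks at the same score deciles. The 3 without overlap were the DDC peak at chr7:50628200-50629367, the SLC18A1 peak at chr8:20054300-20055154 and the edge peak of DBH. The 2 adjacent day 0 peaks of the main DBH region overlapped the same day 3 peak, and the interval counts them separately. It also treats peaks of the same window as independent. The background was not matched on local density, which was 24.1 day 3 peaks per Mb in the windows against 6.82 over the list. A difference from the background was therefore not tested. In the other direction, 15 of 26 day 3 peaks (57.7%, 36.9 to 76.6) had an overlap at day 0, against 40.1% of that list and 50.5% at the same deciles. Both background values lie within that interval. The 11 day 3 peaks without a day 0 overlap were spread over DDC, DBH, GCH1, SLC18A1, SLC18A2 and SLC6A2. The day 3 peaks stood higher in their list than the day 0 peaks in theirs, with 21 of 26 against 9 of 19 in the upper 50% by score. Their median tag count was 72.5 against 50 for the whole day 3 list, and 30 against 26 at day 0, and their median fold 17.5 against 17.05, and 7.65 against 9.30.

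Of the same 19 day 0 control peaks, 10 (52.6%, 28.9 to 75.6) overlapped a peak of LSD1+8a knockdown cells, against 42.1% of the whole list and 36.5% of others at the same deciles. The interval includes both values. It counts separately the 2 adjacent DBH peaks, which overlapped the same knockdown peak. The 9 without overlap comprised 3 of the 4 DDC peaks, 2 of 4 at DBH, 2 of 4 at GCH1, 1 of 3 at SLC18A1 and 1 of 3 at SLC6A2. The TH peak was shared. Of the 12 knockdown peaks, 9 (75.0%, 42.8 to 94.5) overlapped a day 0 control peak, against 69.4% of that list and 74.5% of others at the same deciles, and 9 (75.0%, 42.8 to 94.5) a day 3 control peak, against 45.5% and 45.2%. These intervals include the background values. The knockdown peaks absent from day 0 control cells were the DDC peak under the strong LSD1+8a peak, the GCH1 peak at chr14:55389165-55389742 and the DBH peak at chr9:136548454-136548947.

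All 6 LSD1+8a peaks overlapped a peak of at least 1 LSD1 list, as did 84.5% of all LSD1+8a peaks. With day 3 LSD1, 4 of 6 (66.7%, 22.3 to 95.7) overlapped, against 59.6% of the list, and with day 0 control LSD1 5 of 6 (83.3%, 35.9 to 99.6), against 60.9%. These shares do not differ from the background beyond their intervals. The 3 SVIL peaks all overlapped a day 3 LSD1 peak (29.2 to 100%), against 58.7% of the SVIL list, and 1 of 3, at SLC6A2, overlapped an LSD1+8a peak, against 18.6%. Of the 3, 2 overlapped the same LSD1 peak at DBH, and the interval counts them separately. With 3 peaks no difference was detectable.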

How the data were processed

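Chromatin immunoprecipitation with sequencing was used in SH-SY5Y cells. Fixation took 10 minutes in 1% formaldehyde, fragments after shearing were 300 to 800 bp long and reads were single-end, 50 bp, per the labels' protocols. The 5 files are peak lists that the authors deposited, 1 per library and not pooled. CASAVA, Bowtie 1.0.0 and the builds hg19 and mm9 are named in the submitters' processing notes. Because chromosomes 20, 21 and 22 occur, which mouse lacks, positions were taken as hg19. Neither the caller of the peaks and its cutoff nor the inputs and the read depth were given in the sources used here. Per the file headers, tags are whole-number counts, not normalized, and fold enrichment is the authors' ratio over an undefined background. The score column lost its name in the deposited file and is a score without a unit. Length and summit are in bp.

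From these, peaks overlapping a window by at least 1 bp were taken, and peaks of all lists were merged where they shared at least 1 bp. Rank is by score within a list. Expected shares at the same score deciles average the share among the list's other peaks over the deciles of the peaks in question. Tiles ran from the first base to the last peak end of each chromosome (3042 Mb in all). Shares have exact (Clopper-Pearson) 95% intervals, and with 1 library per group no test was made. All 7 genes and their peaks are named. The windows, members and motif list were chosen with earlier results of these data known. The fixed list of other pathway genes was not counted, since no hg19 positions were used here. Overlap, merging and tiling were checked on simulated intervals. Promoter sequences are RefSeq's, in GRCh38.p14. Alternatives were other overlaps, window sizes, score and fold limits, merging within 1 kb and other tiles. The comparison with flanks was added after the data were seen. Python 3.11.15, pandas 2.3.3 and scipy 1.17.1 were used.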

Additional observations from a re-analysis of the deposited data

How the results depend on the processing

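Counts of peaks in the windows moved most with the score required. Kept to its upper 50% by score, the day 0 control LSD1 list had 9 peaks there and the LSD1+8a list 3. With the lowest SVIL score, 71.7, applied to every list they were 11 and 3. Cut to the 1452 best peaks of each list, LSD1 had 1 peak in control cells at day 0, 2 at day 3 and 0 in knockdown cells, and LSD1+8a had 3. The strict lists leave too few LSD1 peaks to describe genes. The numbers of peaks with the summit inside, wider or narrower windows and a fold limit, of regions in 2 or more lists and of overlaps between stages stayed within 1.5 times the values reported. Leaving out tiles far from any peak raised the tile shares, for LSD1 at day 3 from 49.1% to 54.9%. Relative to the flanks in place of the whole list, density in the windows was 2.74, 2.59 and 2.29 times as high for the LSD1 lists in the order given, 2.99 for LSD1+8a and 9.72 for SVIL, where the flanks held 2 peaks, against 3.17, 3.53, 3.30, 5.0 and 5.82. No paired analysis was possible because each group is 1 library and no test was made. Unknown depth limits every comparison between lists.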
